A study of Mus musculus with 2 samples.

Results

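ATP-binding cassette (ABC) transporters are membrane proteins that use ATP to move lipids, drugs, peptides, porphyrins and other molecules across membranes, and a few relatives in the same gene family act in protein synthesis instead. The genes described here are those of the mouse array whose symbol places them in subfamilies A to G, leaving out Abcg2. They number 44 of 18193 genes with a probe set that carries exactly 1 symbol, and they are covered by 91 probe sets. Each gene is represented by its probe set with the highest mean intensity over both arrays. The difference between the cultures was not an input to this choice, but the sign and size of a gene's difference can depend on it, as described below.

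Family members of the A subfamily carry sterols and phospholipids, those of the B and C subfamilies include the pumps that remove cytotoxic drugs and their glutathione conjugates from cells, and D members serve peroxisomes and lysosomes. The E and F members lack a membrane part and are tied to translation, and the G members mostly export sterols. In tumour cells the family is best known for drug resistance, and in endothelial cells and macrophages for cholesterol efflux.

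Total RNA was measured on 1-colour arrays in 2 samples, with 1 array each. The first sample is labelled as mouse lymphoma cells co-cultured with endothelial cells, which form the lining of vessels, and the second as lymphoma cells in a medium that contains serum. No strain, genotype, line, age, treatment agent or time is given in the labels, nor the species and source of the endothelial cells, whether they were removed before extraction, or the medium of the co-culture. With 1 array per culture there is no test, no p-value and no estimate of the spread between cultures, and differences below compare these arrays only.

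The deposited intensities are linear, and values below 44.3, the pooled median of all values, were set to that floor before the log2 difference was taken as co-culture minus serum. A gene is called measured when either array, or both, exceeded the floor, and a difference of at least 2-fold is reported as higher or lower. Different measured probe sets of the same gene differed with a pooled SD of 0.60 on the log2 scale (5478 genes), and those of the ABC genes with 0.60 (13 genes). This spread lies between probe sets on the same arrays, is not a pure estimate of error and includes values set to the floor. It does not measure variation between repeated cultures. The 3′ to 5′ intensity ratio, a sign of RNA length, was lower on the co-culture array for beta-actin (2.05 against 3.56 on the serum array), for Gapdh (1.88 against 2.54) and for Tfrc (5.03 against 13.2), and its part in the differences below was not tested. The labelled cell type was poorly marked on both arrays: 4 of 11 B cell genes and 3 of 16 general leukocyte genes were measured, and none reached an intensity of 200. Ptprc, the CD45 antigen of leukocytes, had intensities below the floor, 3.14 in co-culture and 21.5 in serum culture. The measured markers went in both directions. Blk, a kinase of B cells, had 125.7 in co-culture and 27.0 in serum culture, at least 2.84-fold higher. Ebf1, another B cell gene, had 85.3 and 160.9, lower but within 2-fold. The median log2 difference of the 4 measured B cell genes was 0.65, and Blk, Igll1 and Spib were below the floor in serum culture. The leukocyte tetraspanin Cd53 had 64.3 in co-culture and 139.5 in serum culture, 2.17-fold lower. Coro1a, an actin regulator of leukocytes, had 125.3 in co-culture and 75.5 in serum culture, within 2-fold. Of 10 fibroblast or mesenchymal marker genes 6 were measured, and of 8 macrophage genes 3, with 0 past 2-fold in either list. Twist1, a mesenchymal marker, was the only 1 of them at 200 or more, with 612.3 in co-culture and 869 in serum culture. Of 20 endothelial marker genes 4 were measured, with summed intensities over all 20 of 1021 in co-culture and 879.6 in serum culture. Egfl7 supplied 531.8 and 473.1 of those sums, while Pecam1, Cdh5 and Kdr, defining endothelial genes, lay below the floor on both arrays. The 1 marker past 2-fold ran the other way: Flt1, a receptor for vascular growth factor, had 26.4 in co-culture and 93.3 in serum culture, at least 2.11-fold lower. What endothelial RNA contributed to the differences was not tested. In bulk RNA, fewer cells of a type and less RNA per cell cannot be told apart.

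Of the 44 ABC genes, 26 (59.1%) were measured, against 63.4% of all genes. None was at least 2-fold higher in co-culture, where 4.60% of all measured genes were, and 4 were at least 2-fold lower, or 15.4%, where 10.1% of all measured genes were. The lower genes were Abca9, Abca8a, Abca3 and Abcb8. Over the measured genes the median log2 difference was -0.42, against -0.06 for all 11542 measured genes, and 17 of the 26 lay below 0 (65.4%, against 54.1% of all measured genes). For 7 of the 26, above the floor on 1 array only, the filter fixed the sign, as for 1642 of all measured genes. Abca4, Abca13, Abca8a and Abca8b were thus below 0, and Abca1, Abcc9 and Abcd2 above. Among the 15 ABC genes with an intensity of 200 or more on an array, 12 lay below 0 (80.0%) and 3 above, against 57.7% below 0 among all 8453 genes of that intensity. These signs rest on 1 probe set per gene. Of the 12, Abcb8, Abcb10, Abcc1, Abcc5 and Abcf1 also had a measured probe set above 0, and of the 3, Abcf2 had one below. The median depends on how probe sets are combined. Averaging all measured probe sets of each gene gave -0.18, against 0.01 for all measured genes. Lowering the floor to percentile 25 gave 0.00, against 0.04 for all genes measured at that floor.

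**Figure D1:**
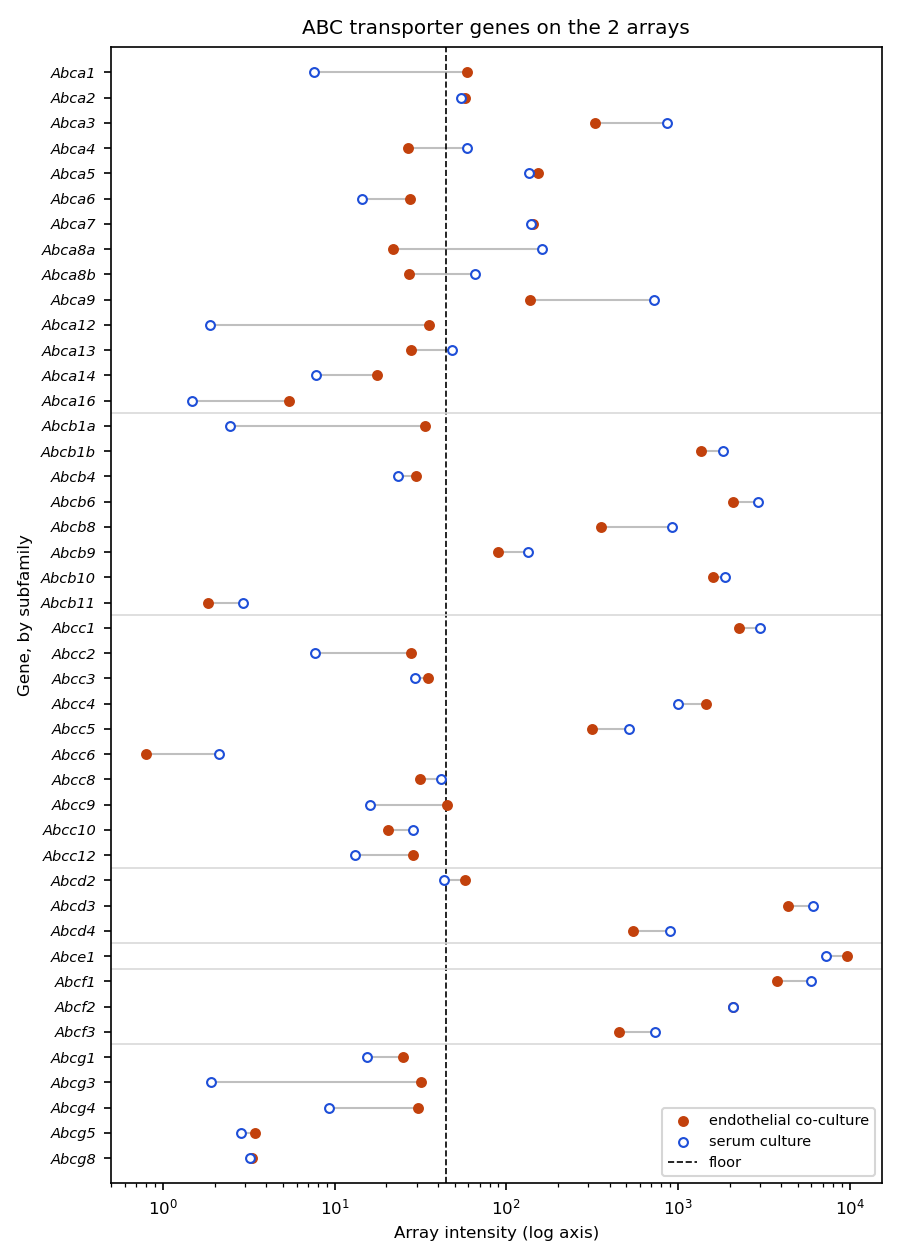
Intensity of each of the 44 ABC genes on a log axis, with filled points for the endothelial co-culture, open points for the serum culture and a dashed line at the floor of 44.3. Genes lie in subfamily blocks from A at the top to G at the bottom. Points of 1 gene can be compared, while levels of different genes rest on different probes and cannot. The 5 G genes shown lie left of the floor on both arrays.

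**Figure D2:**
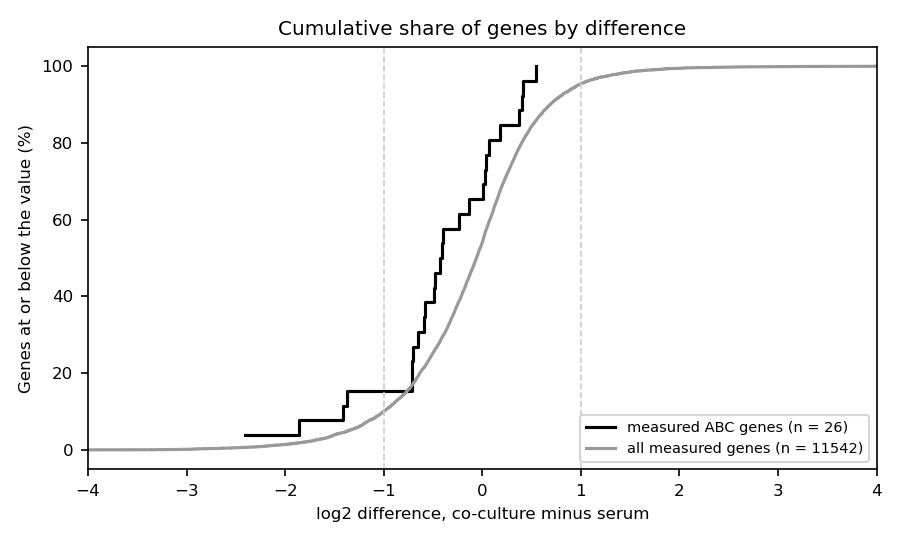
Cumulative share of genes (%) by log2 difference, co-culture minus serum, for the 26 measured ABC genes in black and all 11542 measured genes in grey, with dashed lines at 2-fold. The black line lies left of the grey one over most of its range and ends at 0.54.

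The genes with the largest differences in the A subfamily are neighbours. Abca5, Abca6, Abca9, Abca8a and Abca8b follow each other on chromosome 11 in the RefSeq annotation with no other listed gene between them, and together they form a cluster of related lipid transporters whose substrates are less well defined than those of Abca1. At the floor used, Abca9 and Abca8a were past 2-fold, as was Abca3, the other such A gene. Abca5 was not, and Abca8b, with its co-culture value below the floor, has only a bound short of 2-fold. The RefSeq promoter windows of these genes are shown, from 250 bases before to 50 after the annotated start (GRCm38.p6). They are those of Abca9 at chr11:110168104-110168403, Abca8a at chr11:110095888-110096187, Abca8b at chr11:109995796-109996095 and Abca5 at chr11:110337667-110337966, all on the minus strand, and Abca3 at chr17:24351773-24352072 on the plus strand. Capitals mark matches, on either strand, to CCAAT, to TATAAA, to the GC box GGGCGG, to GCGTG, the core bound by the aryl hydrocarbon receptor, and to TGACNNNGC, the core bound by the antioxidant regulator Nfe2l2. Adjoining or overlapping matches run together.
Abca9: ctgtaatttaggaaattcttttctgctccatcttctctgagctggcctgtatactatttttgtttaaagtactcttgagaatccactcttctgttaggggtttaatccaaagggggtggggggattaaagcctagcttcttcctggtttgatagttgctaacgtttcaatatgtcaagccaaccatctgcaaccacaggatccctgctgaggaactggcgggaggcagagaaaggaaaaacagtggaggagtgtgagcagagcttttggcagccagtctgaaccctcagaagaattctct
Abca8a: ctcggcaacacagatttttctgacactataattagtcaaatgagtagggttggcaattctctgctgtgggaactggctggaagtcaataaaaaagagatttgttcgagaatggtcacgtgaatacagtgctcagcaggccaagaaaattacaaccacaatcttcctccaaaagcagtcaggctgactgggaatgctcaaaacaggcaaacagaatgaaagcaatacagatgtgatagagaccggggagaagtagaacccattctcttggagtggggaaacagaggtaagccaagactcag
Abca8b: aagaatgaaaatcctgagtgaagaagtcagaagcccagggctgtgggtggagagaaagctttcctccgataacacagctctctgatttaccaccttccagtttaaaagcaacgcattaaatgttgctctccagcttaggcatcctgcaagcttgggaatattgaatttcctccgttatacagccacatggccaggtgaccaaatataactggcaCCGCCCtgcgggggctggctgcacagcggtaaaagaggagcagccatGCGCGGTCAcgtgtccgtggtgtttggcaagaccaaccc
Abca5: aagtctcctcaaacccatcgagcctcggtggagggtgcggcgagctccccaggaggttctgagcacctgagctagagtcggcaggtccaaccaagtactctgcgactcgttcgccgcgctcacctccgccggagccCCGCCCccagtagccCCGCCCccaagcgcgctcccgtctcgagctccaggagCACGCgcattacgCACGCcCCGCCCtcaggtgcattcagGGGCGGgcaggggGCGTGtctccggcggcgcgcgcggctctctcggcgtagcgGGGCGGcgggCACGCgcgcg
Abca3: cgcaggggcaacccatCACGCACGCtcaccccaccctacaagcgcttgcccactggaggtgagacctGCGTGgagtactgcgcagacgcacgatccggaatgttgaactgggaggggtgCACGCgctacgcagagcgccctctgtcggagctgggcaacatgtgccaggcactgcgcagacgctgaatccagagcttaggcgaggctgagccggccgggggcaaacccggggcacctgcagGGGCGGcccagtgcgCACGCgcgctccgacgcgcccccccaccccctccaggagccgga

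The windows of Abca9 and Abca8a held 2 and 4 CpG dinucleotides and no match to the motifs, and that of Abca8b held 10 CpG with 1 GC box and 1 antioxidant core. By contrast the window of Abca5 held 40 CpG, 5 GC boxes and 4 GCGTG cores, and that of Abca3 held 29 CpG, 1 GC box and 5 GCGTG cores. A window was found for 34 of the 44 genes. The 22 of these that were measured had a median of 22 CpG and the 12 that were not had 6, close to the medians of 21 and 6 over all measured and unmeasured genes. The GC box was present in 14 of the 22 windows of measured ABC genes, against 65.0% over all measured genes, and in 3 of the 12 others, against 33.8% over all unmeasured genes. Over the 34 windows together it was in 17, and in 35.9% of all 27025 gene windows, which hold a smaller part of measured genes. GCGTG was found in 8 windows of measured ABC genes (52.3% over all measured genes) and 3 of the others (29.2% over all unmeasured genes). Over the 34 windows, CCAAT was in 13 (37.9% of all genes), TATAAA in 5 (14.2%) and TGACNNNGC in 5 (12.5%). A match describes letters and is not evidence of binding.

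Abca9 had an intensity of 138 in co-culture and 728 in serum culture, a log2 difference of -2.40 or 5.29-fold lower. Its other probe set lay below the floor on both arrays. Abca8a had 22.0 in co-culture and 161 in serum culture, at least 3.62-fold lower since the co-culture value is below the floor. Abca8b had 27.1 and 66.1, at least 1.49-fold lower. This bound is short of the 2-fold limit, and with the floor at percentile 25 Abca8b passed it (-1.28). Abca5, at the other end of the cluster, had 153 in co-culture and 135 in serum culture, with log2 differences of 0.18 and 0.05 by its probe sets (-0.02 for the first when the arrays are scaled to the bacterial spikes). Abca6 was below the floor on both arrays. Of the 4 measured genes of the cluster 2 were thus at least 2-fold lower and 1 was within 2-fold on each side of 0. Abca9 and Abca8a rest on 1 measured probe set each, and Abca8a and Abca8b count as measured through the serum array alone. Raising the floor to percentile 75 of all values leaves Abca9 at -0.90 and Abca8a without a value.

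**Figure D3:**
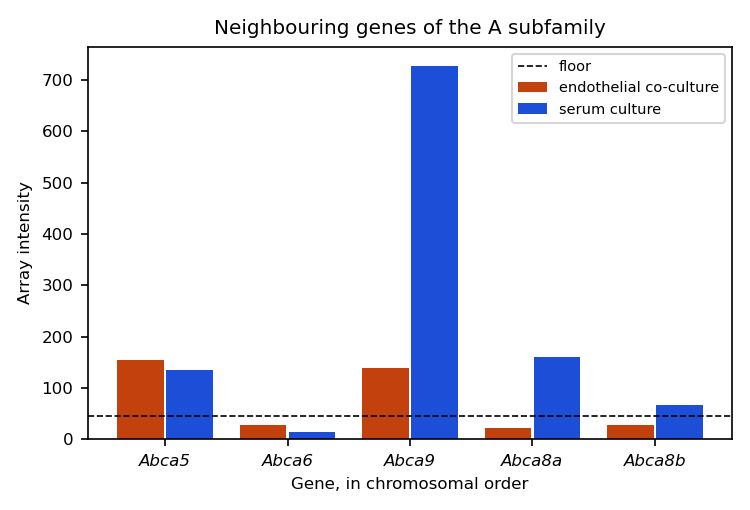
Intensity of the 5 neighbouring A subfamily genes in chromosomal order, in the endothelial co-culture (left bar of each pair) and the serum culture (right bar), with the floor of 44.3 dashed. Abca9 and Abca8a are past 2-fold from this floor. Abca8b, at 27.1 and 66.1, is at least 1.49-fold lower, a bound that does not exclude 2-fold.

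Among the remaining A genes, Abca3 had the clearest difference. This transporter loads phospholipid into the lamellar bodies of surfactant-making lung cells. It had 327 in co-culture and 868 in serum culture, 2.66-fold lower, and its other measured probe set gave 59.4 and 119, a log2 difference of -1.01. It was the only one of the 4 genes past 2-fold with another measured probe set also past 2-fold. Abca1, which hands cholesterol to lipid-poor apolipoprotein A-I, had 59.0 in co-culture and 7.62 in serum culture, a log2 difference of at least 0.41 from the floor. Its other probe sets lay below the floor on both arrays, 1 with 1.94 in co-culture and 16.2 in serum culture and 1 with 18.9 and 8.82. When 16 was added to every value instead of flooring, Abca1 passed 2-fold (1.67), and its value in serum culture lies in the background range, so the size is not fixed by these data. Abca7, a phospholipid transporter linked to phagocytosis, had 142 in co-culture and 138 in serum culture, and Abca2, a lipid transporter of lysosomes that is prominent in brain, had 57.2 and 54.8. The signs of both small differences turned under quantile normalization and under scaling to the spikes. Abca4, the retinoid transporter of photoreceptors, had 26.6 in co-culture and 59.0 in serum culture, and Abca13 had 27.8 and 48.5. Abca12, the lipid transporter of the skin barrier, Abca14 and Abca16 were below the floor on both arrays.

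The multidrug pumps of the B and C subfamilies did not reach 2-fold in either direction. Of 8 genes for efflux of drugs and conjugates 4 were measured, with log2 differences between -0.72 and 0.54. Mice carry a pair of P-glycoprotein drug pumps, Abcb1a and Abcb1b. Abcb1b had 1360.2 in co-culture and 1827 in serum culture, a log2 difference of -0.43. Abcb1a, the form of the blood-brain barrier, was below the floor in both (33.4 in co-culture and 2.45 in serum culture), so Abcb1b was the only measured one of the pair. Abcc1, which exports glutathione conjugates and leukotriene C, had 2271 in co-culture and 2987 in serum culture (-0.40), or 473.6 and 459.9 by its other probe set (0.04). Abcc4, which exports cyclic nucleotides, prostanoids and nucleoside drugs, had 1464 in co-culture and 1007 in serum culture, a log2 difference of 0.54. That was the highest value among the 26 genes, and it is smaller than the pooled SD between probe sets.

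Abcc5, another exporter of cyclic nucleotides, gave no settled direction. Its representing probe set had 317 in co-culture and 521 in serum culture (-0.72), and of its 7 measured probe sets, out of 10, 5 lay above 0 and 2 below. They ranged from -0.72 to 1.75, where the highest had 187 in co-culture and 55.6 in serum culture. The mean over them was 0.41. Abcc2 and Abcc3, conjugate pumps of liver and gut, and Abcc10 were below the floor on both arrays, with intensities of at most 35.0. The bile transporters Abcb4, for phosphatidylcholine, and Abcb11, for bile salts, were below it too, as was Abcc6, whose loss causes ectopic mineralisation. Of the sulfonylurea receptors, which regulate potassium channels, Abcc8 was below the floor and Abcc9 just reached it in co-culture (45.1, against 15.98 in serum culture). Abcc12 was not measured.

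Of the 3 transporters of mitochondria and porphyrins, 1 was at least 2-fold lower in co-culture and 2 were within 2-fold. Abcb8, an inner membrane protein tied to potassium flux and iron export, had 356 in co-culture and 920.3 in serum culture, 2.59-fold lower. Its other probe set, close to the floor, gave 53.9 and 46.2 (0.22), and the mean of both was -0.57, within 2-fold. Abcb6, a porphyrin transporter, had 2081 in co-culture and 2919 in serum culture (-0.49). Abcb10, an inner membrane protein needed for haem synthesis in red cell precursors, had 1599 in co-culture and 1886 in serum culture (-0.24, and 0.18 by a weaker probe set). Abcb9, a peptide transporter of lysosomes, had 89.3 in co-culture and 134 in serum culture (-0.59, and 0.16 by another probe set).

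In the D subfamily all 3 genes were within 2-fold. Abcd3, which brings branched-chain and bile acid intermediates into peroxisomes, had 4393 in co-culture and 6135 in serum culture (-0.48). Abcd4, which lets cobalamin out of lysosomes, had 548 in co-culture and 901 in serum culture (-0.72), and its other probe set gave -0.55. Abcd2, a peroxisomal importer of very long chain fatty acids, lay near the floor with 57.2 in co-culture and 43.6 in serum culture (0.37), and its other measured probe set gave -0.73, so its direction is not settled.

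Among the E and F members, the probe sets of Abce1 matched closely and those of Abcf1 did not. Abce1, which splits ribosomes after termination so that they can be reused, had 9653 in co-culture and 7297 in serum culture, with log2 differences of 0.40 and 0.48 by its probe sets. Abcf3 had 454 in co-culture and 737 in serum culture (-0.70), and all 3 of its probe sets lay below 0, up to -0.13. Abcf2 had 2086 in co-culture and 2082 in serum culture (0.00, and -0.22 by another probe set). Abcf1, which helps the initiation factor that delivers the first tRNA, had 3791 in co-culture and 5978 in serum culture (-0.66). Its 6 probe sets split evenly, with 3 below 0 and 3 above. Without probe sets whose identifier marks shared sequence its value was 0.51 (1949 in co-culture and 1372 in serum culture). The remaining unshared probe sets also differed in direction, at -0.53 (926 in co-culture and 1333 in serum culture) and, near the floor, 0.36.

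**Figure D4:**
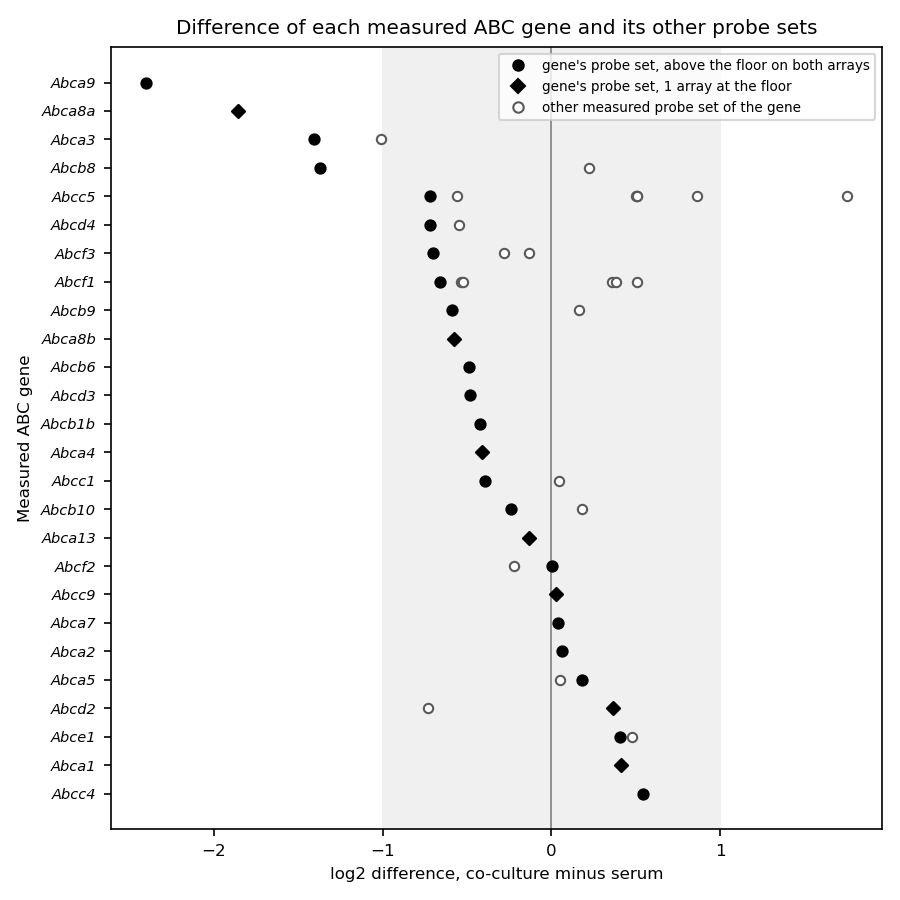
Log2 difference, co-culture minus serum, of the 26 measured ABC genes, lowest at the top. Filled points are the representing probe set, diamonds those with 1 array at the floor, open points the other measured probe sets, and the grey band marks differences within 2-fold. Open points lie on the other side of 0 for 8 of the 13 genes that have one, with the widest spread, 2.47, in Abcc5.

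The 5 genes of the G subfamily described here, most of them sterol transporters, were below the floor on both arrays. Abcg1, which moves cholesterol to lipoprotein particles, had 25.1 in co-culture and 15.5 in serum culture, and its relative Abcg4 had 30.6 and 9.25. Abcg5 and Abcg8, the paired sterol pump of liver and gut, had at most 3.43. Abcg3, a rodent member, had 31.7 in co-culture and 1.91 in serum culture. Over the 18 genes below the floor the highest intensity was 35.5 in co-culture and 41.4 in serum culture, and the medians were 27.7 and 7.76. The co-culture array as a whole had a higher median than the serum array, 50.7 against 36.9. With the floor lowered to percentile 25, 8 of 39 measured ABC genes passed 2-fold upward and 6 downward, against 12.7% upward and 10.0% downward among all 16134 genes measured at that floor. The 8 were Abca1, Abca12, Abcb1a, Abcc2, Abcc9, Abcc12, Abcg3 and Abcg4. Each of these had an intensity of at most 59.0 on either array.

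Genes that work with the transporters were examined in 8 lists. Of 10 measured nuclear receptors, sterol regulators and other regulators of ABC genes 0 were higher past 2-fold and 3 lower, and their median was -0.35. Rxrb, a retinoid X receptor that partners the sterol-sensing receptors, had 797.6 in co-culture and 2510.3 in serum culture. Its relative Rxra had 804 and 1816, and Mylip, which marks the LDL receptor for breakdown, had 139.5 and 292. Ahr had 551 in co-culture and 687 in serum culture, and Nfe2l2 had 2357 and 2240.1, both within 2-fold. For 14 lipid acceptors and partners the counts were 0 higher and 2 lower, and the median -0.01. Apoe, a carrier of cell-derived cholesterol, had 166 in co-culture and 488 in serum culture (-1.55). Lipa, the lysosomal lipase, had 212 and 513 (-1.28, and -0.06 to 0.13 by other probe sets).

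Among 25 measured genes of iron-sulfur cluster and haem synthesis, partners of the mitochondrial transporters, 0 were higher and 5 lower, around a median of -0.06. Urod, an enzyme of haem synthesis, had 2625 in co-culture and 5950.3 in serum culture (-1.18, and -1.24 by another probe set). Ppox, a later enzyme of that pathway, had 157 and 549 (-1.81, but 0.12 by another probe set), and Nubp1, a cytosolic cluster scaffold, 326 and 866 (-1.41, and -0.15 to 0.75 by others). The list for peroxisomal import and oxidation also holds cobalamin genes, such as Mmachc and Mtr, and the fatty acid elongase Elovl1. Of its 27 measured genes 0 were higher and 4 lower, around a median of -0.27. Amacr, a racemase for branched fatty acids, had 137 in co-culture and 439 in serum culture, Acaa1a, a thiolase, 169.6 and 439 (-0.57 by another probe set), and Crot, which readies shortened fatty acids for export, 289.9 and 689.

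None of 21 genes of ribosome recycling and initiation passed 2-fold (median -0.11). The glutathione list had 2 of 18 higher and 1 lower, with a median of -0.03. Gclc, of the first step of glutathione synthesis, had 1899.9 in co-culture and 893 in serum culture, with log2 differences of 1.09 and 1.19 by its probe sets. Gstk1, a mitochondrial and peroxisomal glutathione transferase, had 65.5 in co-culture and 465 in serum culture (-2.83), and Gstt1 had 89.8 and 14.5, at least 2.03-fold higher. Among ABC proteins with other symbols and their partners, 1 of 9 was higher and 1 lower (median 0.16). Pdzk1, a scaffold of membrane transporters, had 384 in co-culture and 177.6 in serum culture, and Tap1, of the antigen peptide transporter, had 24.6 and 94.5, at least 2.13-fold lower. Of 9 SLC uptake carriers for drugs and anions 1 was lower and 0 higher (median -0.01), Slc22a4 with 33.6 in co-culture and 127 in serum culture, at least 2.86-fold lower. These shares stand beside 4.60% higher and 10.1% lower over all measured genes, and with so few genes per list they describe these arrays only.

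**Figure D5:**
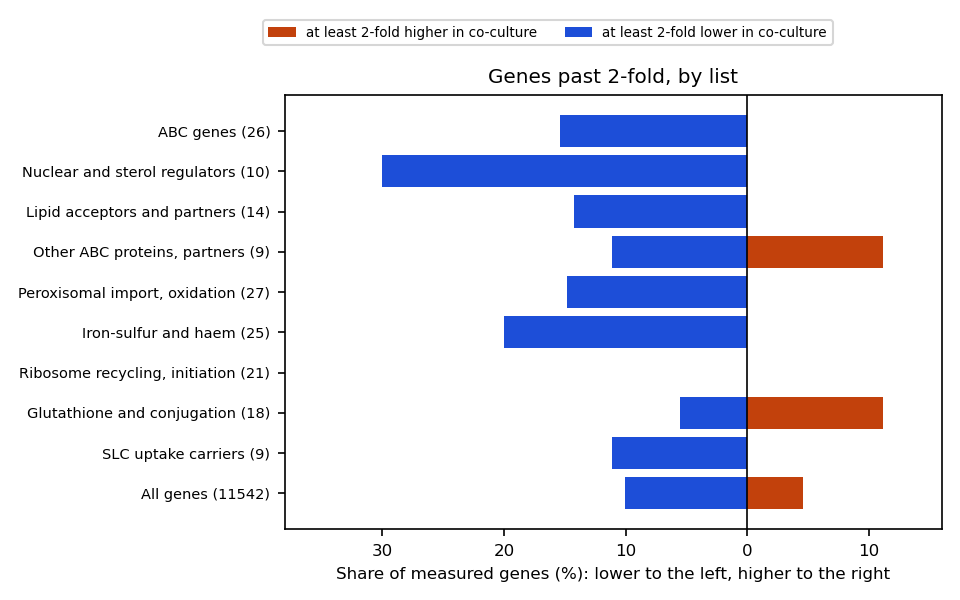
Share of measured genes (%) at least 2-fold lower (bars to the left) or higher (bars to the right) in co-culture than in serum culture, for the ABC genes, 8 lists of related genes and all genes, with the number measured in parentheses. For ABC genes the bars are 15.4% lower and 0 higher, and for all genes 10.1% and 4.60%.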

How the data were processed

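Total RNA of 2 samples was copied into biotin-labelled cRNA by in vitro transcription and put on 1-colour arrays, as the labels' protocols state. The deposited table holds the authors' linear intensity per probe set (45101 on each array). Which software, background correction and scaling made them is not given in the sources used here. With 2% trimmed from each tail, both arrays had a mean of 500, a feature of the values that no label explains. Of the probe sets, 34945 outside the controls had 1 gene symbol in the platform annotation and 932 had several, which were not used. All 44 symbols matched RefSeq GRCm38.p6 through the gene number, and none had changed.

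Genes were represented by their probe set of highest mean intensity. Values were floored at 44.3 and put on the log2 scale, and a call needed a difference of 1. The steps were tested on simulated data. With 1 array per culture no test was made, and the number of arrays limits the precision. The genes, the related lists and their role groups were chosen with earlier results of these data known. The genes named with full values were those past 2-fold, the brightest of each subfamily, those whose probe sets differ by more than 1 in log2 difference, and a list of known pumps and housekeeping members, with up to 3 members per related list. Ahr, Nfe2l2 and the markers were named after their values were seen. In all, 10 alternatives changed the floor, the scaling or the probe set, and 1 more was chosen after seeing the data. Python 3.11.15, numpy 2.4.6 and pandas 2.3.3 were used, and promoter sequences are those of RefSeq.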

Additional observations from a re-analysis of the deposited data

How the results depend on the processing

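The 4 lower calls all held under 8 of the 11 alternative settings. The count was 2 with the floor at percentile 75 (Abca3 and Abcb8), 3 with a floor of 200, 3 with the mean over probe sets (Abcb8 at -0.57) and 6 with the floor at percentile 25. No gene was higher under 9 settings, 8 were with the floor at percentile 25 and 1, Abca1, with a pseudocount of 16. The median of -0.42 was 0.0029 with the floor at percentile 25, -0.59 with scaling to the bacterial spikes and -0.18 with the mean over probe sets, and lay between -0.49 and -0.31 otherwise. Scaling to the spikes moved the median of all measured genes to -0.27 and their share of higher among all calls to 17.0%, against 31.4%, and the floor at percentile 25 moved that share to 55.9%. Of 261 values of single genes under alternatives 246 moved by less than 0.60, the pooled SD between probe sets, 15 moved by more, and 0 calls turned sign. Many could not move so far by construction: subtracting the median shifts genes by 0.06 and scaling to the spikes by at most 0.20. Among genes within 2-fold the sign did turn, in up to 4 genes per setting. Abcf1 went from -0.66 to 0.51 without probe sets of shared sequence, and Abcc5 from -0.72 to 0.41 with the mean over probe sets. Genes below a raised floor have no value there. The cause of these shifts was not tested, apart from the floors, which by construction admit or remove dim genes. No paired analysis was possible because each culture has 1 array. Signal near the floor limits the 7 measured genes that lie below it on 1 array.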
